A study of Mus musculus with 16 samples.

Results

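Gene expression was compared between hearts labelled as conditional knockouts of Zbtb17 (cKO) and control hearts, with the surgery the mice had undergone as a second factor. The members of this comparison were the 8 arrays titled cKO and the 8 titled Control, which are all 16 arrays of the series. The mice were male, on a C57BL/6 background, and were operated on at 8 to 10 weeks of age. Hearts were collected 4 weeks after transverse aortic constriction (TAC), a narrowing of the aorta that loads the left ventricle with pressure, or after a sham operation. The 4 groups were cKO TAC, cKO sham, Control TAC and Control sham, each with 4 numbered heart samples and 1 array per sample. The samples are called hearts here, although the labels do not say that each came from another mouse. The labels give neither the Cre driver nor the deleted part of the gene, and they do not say whether control mice carried floxed alleles or a Cre transgene. They also give no batch, so a batch that coincided with genotype cannot be told apart from it.

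Zbtb17 encodes Miz1, a zinc finger transcription factor with a POZ domain that was found as a partner of Myc. Miz1 on its own activates genes at their core promoters, among them the cell cycle inhibitor gene Cdkn2b, and in a complex with Myc and Max it represses them. In other mouse cells, genes of vesicle traffic and autophagy, including Vamp4 and Ambra1, have been reported as Miz1 targets, and in heart muscle Miz1 has been reported to bind the muscle LIM protein encoded by Csrp3.

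RNA was hybridised to Affymetrix arrays of whole-transcript probe sets, and the values are the authors' log2 expression values, in which a difference of 1 is a factor of 2. Of 35556 probe sets, 21333 had a mean above the 40th percentile (4.37) and were tested with limma for the cKO minus control difference averaged over the surgeries. Those with 1 gene symbol stood for 13670 genes. Array medians lay between 4.85 and 4.97, and no array was a copy of another, since any pair differed in at least 97.4% of probe sets. The Control sham arrays had the lowest mean Spearman correlations to their own group. These were 0.974, 0.979, 0.980 and 0.981 for replicates 1 to 4, against 0.984 to 0.986 for the arrays of the other groups. Their replicates 1 to 3 also had the highest lower quartiles, 3.85, 3.83 and 3.80, against 3.73 to 3.78 for the other arrays. This group is the control of the comparison after sham. Control sham replicate 1 stood farthest apart. It had the lowest control mean in 21 of the 46 gene lists described below. Without it, the list medians were 0.06 for vesicle coats and ER-Golgi traffic (0.09 with it), 0.03 for autophagy and lysosome (0.05), 0.08 for the Z-disc, costamere and intercalated disc (0.14) and 0.06 for glycolysis and glycogen (0.09). Myl7, which encodes the atrial myosin light chain, was above 6 on 6 arrays, namely cKO TAC replicates 1 and 2, cKO sham replicate 2, Control TAC replicates 1 and 2 and Control sham replicate 3. The stress gene Atf3 was above 8 on 3 sham arrays, cKO replicate 1 and Control replicates 3 and 4. Ventricular markers were high in every heart, the mean log2 value of 10 such genes lying between 11.5 and 11.8 in cKO hearts and between 11.5 and 11.8 in control hearts.

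The targeted gene itself was not lower in cKO hearts. The Zbtb17 probe set (10509998) read 6.47, 6.49, 6.52 and 6.52 in cKO TAC hearts and 6.51, 6.62, 6.47 and 6.49 in cKO sham hearts, against 6.49, 6.44, 6.56 and 6.30 in Control TAC hearts and 6.19, 6.50, 6.38 and 6.35 in Control sham hearts. The difference of 0.11 ± 0.06 (SE) did not pass (adjusted p = 0.361 by limma), and the ranges of the genotypes overlapped. Where its probes lie relative to the deleted part is not given, so this value does not check the genotypes, which are taken from the labels. Heart RNA also holds the transcripts of every cell in which the gene was not deleted.

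Averaged over surgery, 4 of 21333 probe sets passed an adjusted p of 0.05 (0.0188%), 3 lower and 1 higher in cKO hearts. The 3 that fell were those of Myl2, C2cd5 and Vps28. The higher one, probe set 10598085, has no gene listed in the annotation used here. At an unadjusted p under 0.05 there were 3182 probe sets (14.9%), and at an adjusted p under 0.2 there were 832. The smallest adjusted p was 0.000232, that of Myl2.

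Myl2, which encodes the regulatory myosin light chain of the ventricle, fell, with lower values in every cKO heart. Its log2 value was 12.79, 12.55, 12.83 and 12.87 in cKO TAC hearts and 12.89, 12.83, 12.82 and 12.87 in cKO sham hearts, against 13.25, 13.23, 13.22 and 13.27 in Control TAC hearts and 13.20, 13.22, 13.23 and 13.22 in Control sham hearts. The 8 cKO values lay below all 8 control values, with a gap of 0.31 between the highest cKO and the lowest control heart. The mean was 12.81 ± 0.11 in cKO hearts and 13.23 ± 0.02 in control hearts (SD, n = 8 each). The log2 fold change was -0.42 ± 0.04 (SE, adjusted p = 0.000232 by limma), which leaves 0.745 of the control level. The difference was -0.48 after TAC and -0.36 after sham. In the fit of all 16 arrays Myl2 also passed for each surgery (limma adjusted p = 0.00434 after TAC and 0.0401 after sham). These calls were less firm: a limma fit of only the 8 TAC arrays called 0 probe sets, with 1814 at an unadjusted p under 0.05. After sham, 11 of 16 fits without 1 array called none, and neither did median centring or the replicate block. Averaged over surgery Myl2 stayed past the threshold in 16 of 16 fits without 1 array and under all 12 other alternatives. The labels give neither the Cre driver nor the Cre status of control mice. A Myl2 difference brought by a Cre allele therefore cannot be told apart from one that follows Zbtb17 deletion, and this was not tested.

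Myl3, which encodes the essential light chain of the ventricle, averaged 13.32 ± 0.06 in cKO hearts and 13.25 ± 0.05 in control hearts (SD, n = 8 each), a difference of 0.07 that did not pass (adjusted p = 0.319 by limma). Myl2 was also the 1 member of a list of 10 ventricular cardiomyocyte markers that passed, while the other 9 were all higher in cKO hearts by the fitted value, from 0.005 for Hey2 to 0.26 for Mybpc3, which encodes cardiac myosin-binding protein C.

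C2cd5, whose product carries a C2 domain and takes part in the delivery of glucose transporter vesicles to the plasma membrane, fell as well. It read 6.01, 5.98, 6.00 and 5.88 in cKO TAC hearts and 5.71, 5.76, 6.10 and 5.76 in cKO sham hearts, against 6.45, 6.31, 6.55 and 6.53 in Control TAC hearts and 6.22, 6.57, 6.26 and 6.28 in Control sham hearts. No cKO heart reached the lowest control heart. The log2 fold change was -0.50 ± 0.07 (SE, adjusted p = 0.0345 by limma), and it was -0.49 after TAC and -0.50 after sham. The level in cKO hearts was 0.709 of that in control hearts.

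Vps28, which encodes a subunit of the ESCRT-I complex that sorts ubiquitinated cargo into multivesicular endosomes, is among the reported Miz1 targets. It read 9.0, 9.03, 8.95 and 8.90 in cKO TAC hearts and 8.92, 8.91, 9.06 and 9.04 in cKO sham hearts, against 9.32, 9.32, 9.42 and 9.56 in Control TAC hearts and 9.21, 9.13, 9.13 and 9.18 in Control sham hearts. The genotypes did not overlap. The log2 fold change was -0.31 ± 0.05 (SE, adjusted p = 0.0462 by limma). It was -0.43 after TAC and -0.18 after sham, and the interaction had an unadjusted p of 0.0155 by limma and an adjusted p of 1.

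Probe set 10598085 was higher in cKO hearts, with a mean of 7.37 ± 0.36 against 6.70 ± 0.35 in control hearts (SD, n = 8 each) and a difference of 0.67 ± 0.10 (SE, adjusted p = 0.0462 by limma). Within each surgery the genotypes did not overlap. After TAC the cKO hearts read 7.53 to 7.92 and the control hearts 6.71 to 7.40. After sham they read 6.89 to 7.23 and 6.32 to 6.72. Across the surgeries the ranges overlapped, since Control TAC replicate 2, at 7.40, was above all 4 cKO sham hearts.

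The calls beyond Myl2 depended on single arrays and on the processing. Leaving out 1 array at a time, C2cd5 passed in 7 of 16 fits, probe set 10598085 in 4 and Vps28 in 3, with fold changes of -0.54 to -0.46 for C2cd5 and -0.32 to -0.28 for Vps28. Under the other alternatives C2cd5 passed in 7 of 12 settings, Vps28 in 5 of 12 and probe set 10598085 in 5 of 10. Their highest limma adjusted p there was 0.525, 0.505 and 0.159. Myl2 was the only call when the array left out was 1, 2 or 4 of cKO TAC, 1, 2 or 4 of cKO sham, 1 or 4 of Control TAC, or 3 of Control sham. There were 3 calls when it was 1 or 2 of Control sham. The count was 2 without cKO sham replicate 3, 7 without Control TAC replicate 3, 10 without Control TAC replicate 2, 12 without cKO TAC replicate 3 and 81 without Control sham replicate 4.

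**Figure D1:**
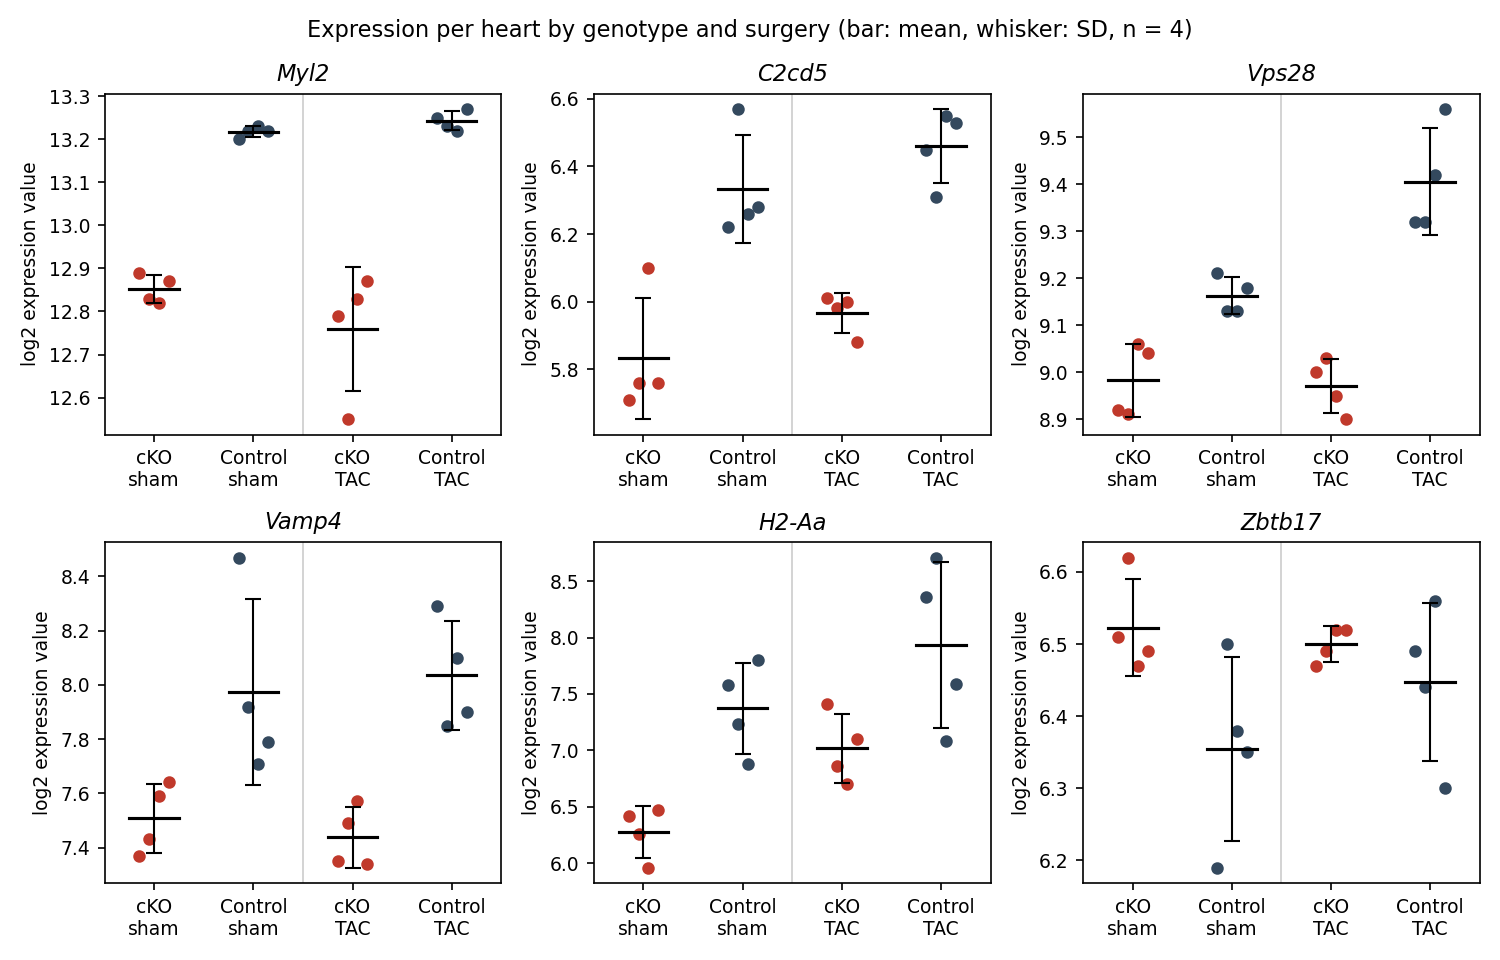
Log2 expression value of 6 genes in each heart, with cKO (red) left of Control (dark blue) within sham and within TAC; points are hearts, horizontal bars are means and whiskers are SD (n = 4). Myl2, C2cd5, Vps28 and Vamp4 show no overlap between the 8 cKO and 8 control hearts, while H2-Aa and Zbtb17 overlap.

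Promoter sequence was set beside these genes because Miz1 acts at core promoters. RefSeq windows of 300 bases on GRCm38.p6, from 250 before to 50 after a transcript start, were searched on both strands for CACGTG, the E-box of Myc and Max, and for ATCGAT and CGGTAATC, which have been reported as Miz1 motifs. The windows below are all those the table holds for Myl2, C2cd5 and Vamp4, written 5′ to 3′ on the gene's strand with motif matches in capitals.

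Myl2 (chr5:122092474-122092773, plus strand): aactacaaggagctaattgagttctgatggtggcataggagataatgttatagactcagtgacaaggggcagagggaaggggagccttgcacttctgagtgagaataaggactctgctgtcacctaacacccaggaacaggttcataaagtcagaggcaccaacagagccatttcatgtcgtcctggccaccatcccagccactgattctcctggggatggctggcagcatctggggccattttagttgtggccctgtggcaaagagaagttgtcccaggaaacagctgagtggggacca

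Myl2, later start (chr5:122092939-122093238, plus strand): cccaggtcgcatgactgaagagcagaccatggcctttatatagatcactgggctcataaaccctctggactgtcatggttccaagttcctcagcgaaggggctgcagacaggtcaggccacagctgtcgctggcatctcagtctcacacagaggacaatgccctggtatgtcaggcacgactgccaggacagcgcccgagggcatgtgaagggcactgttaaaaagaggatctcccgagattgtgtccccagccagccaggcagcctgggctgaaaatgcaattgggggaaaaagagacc

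C2cd5 (chr6:143100103-143100402, minus strand): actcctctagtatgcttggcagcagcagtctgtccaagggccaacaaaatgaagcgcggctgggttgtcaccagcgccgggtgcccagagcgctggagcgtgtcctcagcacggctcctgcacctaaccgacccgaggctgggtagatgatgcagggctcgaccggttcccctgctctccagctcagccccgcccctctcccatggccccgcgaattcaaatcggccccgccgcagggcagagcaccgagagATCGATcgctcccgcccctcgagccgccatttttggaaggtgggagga

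Vamp4 (chr1:162570265-162570564, plus strand): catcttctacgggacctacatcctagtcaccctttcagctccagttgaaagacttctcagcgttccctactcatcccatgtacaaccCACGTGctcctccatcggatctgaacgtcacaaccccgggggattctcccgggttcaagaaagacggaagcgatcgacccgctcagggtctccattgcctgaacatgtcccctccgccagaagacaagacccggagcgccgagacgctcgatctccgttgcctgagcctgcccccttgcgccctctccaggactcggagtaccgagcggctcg

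Vamp4, later start (chr1:162570578-162570877, plus strand): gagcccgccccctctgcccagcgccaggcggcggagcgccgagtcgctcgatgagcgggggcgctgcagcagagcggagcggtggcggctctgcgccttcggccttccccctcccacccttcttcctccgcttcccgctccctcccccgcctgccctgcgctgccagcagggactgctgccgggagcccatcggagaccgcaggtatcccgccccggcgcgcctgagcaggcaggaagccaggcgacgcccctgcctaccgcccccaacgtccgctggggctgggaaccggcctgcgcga

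The C2cd5 window holds ATCGAT from base 253, which is 3 bases into the transcript, and the first Vamp4 window holds CACGTG at base 88, at position -163 from the start. Neither match overlaps another motif. The later Vamp4 window and both Myl2 windows hold none of the 3. ATCGAT occurs in 0.799% of the 13775 windows of genes tested, CACGTG in 9.53% and CGGTAATC in 0.116%. Among 25 windows of the 24 genes with the smallest p, which covered 18 of those genes, 5 held CACGTG, 1 held ATCGAT and 0 held CGGTAATC. The 5 were windows of Vamp4, Plbd1 and Pbrm1 and an overlapping pair of Tor1aip2 windows that hold the same site. By gene, 4 of 18 held CACGTG, against 1228 of the 10865 tested genes with a window. A match describes letters in these windows and nothing was measured there.

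The genotype difference was then compared between the surgeries, which share no array. Of all 21333 probe sets, 63.5% had the same sign of difference after TAC and after sham, with a Spearman correlation across probe sets of 0.364 and a Pearson correlation of 0.268. Probe sets are not independent replicates, so these are descriptions. An unadjusted p under 0.05 was reached after TAC by 1617 probe sets (7.58%) and after sham by 2278 (10.7%). It was reached in both by 325, of which 299 (92.0%) had the same sign and 26 the opposite sign. Both differences came from the same fit, with a shared spread for each probe set. A small spread lowers p in both surgeries, so this overlap is not that of independent tests.

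**Figure D2:**
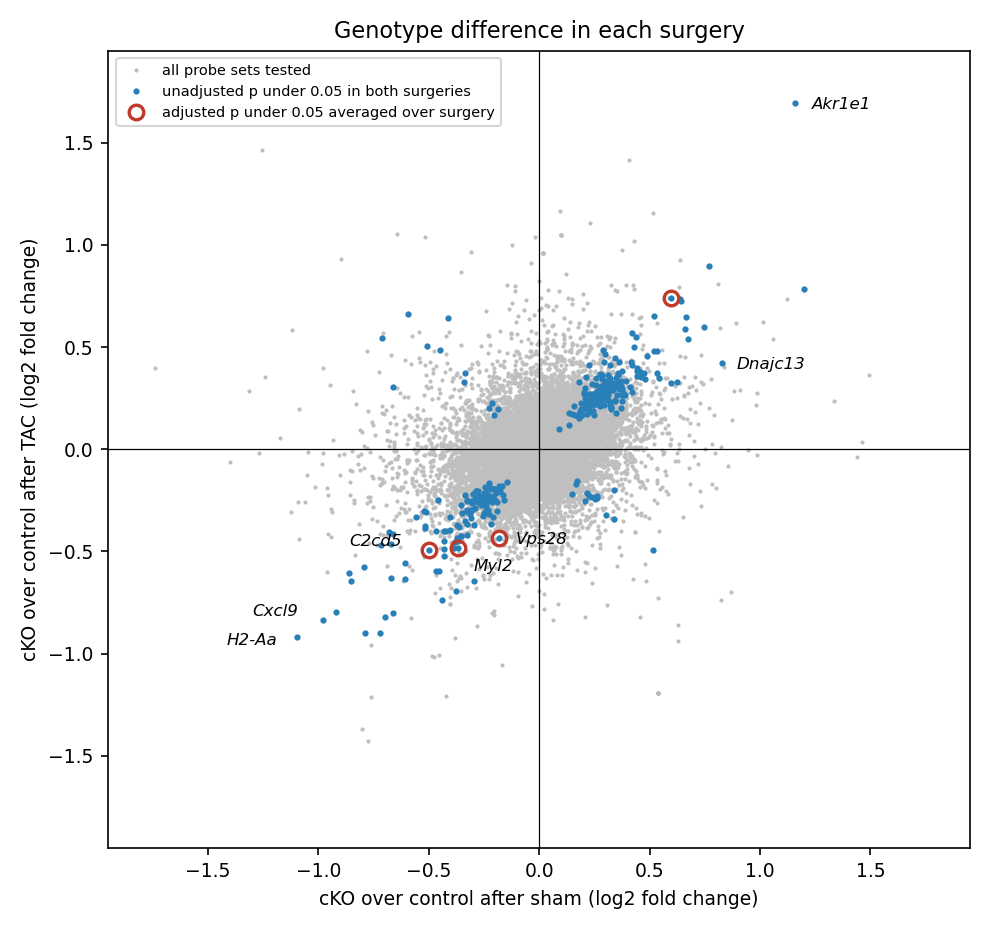
Log2 fold change of cKO over control after sham (x axis) and after TAC (y axis) for the 21333 probe sets tested; blue points have an unadjusted p under 0.05 in both surgeries and red rings mark the 4 probe sets called in the average. Of the 325 blue points, 299 lie in the quadrants of equal sign, and the labelled Akr1e1 lies farthest out at 1.16 after sham and 1.70 after TAC.

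The values of single hearts were compared next. The 8 cKO and 8 control arrays did not overlap for 22 probe sets (0.103%), 12 lower and 10 higher in cKO hearts, and 16 of these have a gene. Besides Myl2, C2cd5 and Vps28, the genes lower in all 8 cKO hearts were Gm5779, Vamp4, Runx3, Rps2, Rpl23, Nlrc5 and Sphk1, and those higher were Prob1, Idi1, Esf1, Tmem167b, Vps52 and Cdc27, none of which passed the adjusted threshold. For Rps2 and Rpl23 this was a dimmer probe set (-0.25 and -0.22) than that used in the lists (-0.17 and -0.14). Gm5779 is annotated as a transcribed pseudogene. The genotypes were separate within each surgery, in the same direction, for 69 probe sets (0.323%).

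Within 1 surgery few probe sets passed. After TAC the only call was Myl2 (0.00469% of probe sets). After sham there were 5 calls (0.0234%), which were Myl2 and 4 probe sets without a listed gene. Those 4 had differences of -0.98 for 10339648, -0.80 for 10582882, -0.65 for 10523903 and 1.46 for 10341314 after sham, against -0.07, 0.09, -0.12 and 0.04 after TAC. Their means over all arrays, 4.46 to 5.39, lay near the filter cut of 4.37. In each of the 4 the Control sham hearts stood apart from every other group. For 10523903 they read 4.71 to 5.09 against 4.06 to 4.47 elsewhere, and for 10341314 4.20 to 4.65 against 5.16 to 6.66. Those arrays also had the lowest correlations to their own group, and whether the calls follow from that was not tested. The interaction of genotype and surgery was called for 0 probe sets by limma (0.0%), with 790 at an unadjusted p under 0.05 (3.70%) and a smallest adjusted p of 0.759.

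Vamp4, which encodes a SNARE of the trans-Golgi network and endosomes and is another reported Miz1 target, came close to the threshold. Its log2 value was 7.35, 7.49, 7.57 and 7.34 in cKO TAC hearts and 7.37, 7.43, 7.59 and 7.64 in cKO sham hearts, against 8.29, 7.85, 8.10 and 7.90 in Control TAC hearts and 8.47, 7.92, 7.71 and 7.79 in Control sham hearts. The genotypes did not overlap, the gap being 0.07. The log2 fold change was -0.53 ± 0.10 (SE, adjusted p = 0.0942 by limma).

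Among the other genes of smallest p, those with lower values in cKO hearts had varied functions. Dctn6, which encodes a dynactin subunit, ranged from 8.97 to 9.30 with a median of 9.17 in cKO hearts, against 9.11 to 10.08 with a median of 9.80 in control hearts. The lowest of those control values came from Control sham replicate 2 and was the only one inside the cKO range. Its log2 fold change was -0.59 ± 0.09 (SE, adjusted p = 0.0551 by limma). Ikzf2, which encodes the lymphoid zinc finger factor Helios, differed by -0.54 (limma adjusted p = 0.0642). The lysosomal phospholipase B-like gene Plbd1 differed by -0.47 and the transcribed pseudogene Gm5779 by -0.37 (limma adjusted p = 0.0642 for each). Slc47a1, a transporter of organic cations, differed by -0.31, and Gne, which encodes an enzyme of sialic acid synthesis, by -0.27.

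Other genes of small p had higher values in cKO hearts. Slc8a1 encodes the sodium-calcium exchanger that removes calcium from cardiomyocytes, and its probe set 10453231 ranged from 8.50 to 8.97 in cKO hearts against 7.79 to 8.65 in control hearts. The log2 fold change was 0.60 ± 0.12 (SE, adjusted p = 0.0942 by limma), while the brighter probe set of the same gene gave 0.36. Tecrl, a reductase-like gene that in humans is linked to inherited arrhythmia, ranged from 10.50 to 11.12 in cKO hearts and from 10.10 to 10.53 in control hearts, with 7 of 8 cKO hearts above every control heart. It differed by 0.50 (adjusted p = 0.0942 by limma).

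Dnajc13 encodes an endosomal DNAJ protein. All 15 of its probe sets were higher in cKO hearts, by 0.12 to 0.62, and the pair of smallest p differed by 0.62 and 0.42 (limma adjusted p = 0.0988 for both). The uncharacterised gene 1700025G04Rik was higher by 0.39 and 0.42 on its 2 probe sets. Fam13a was higher by 0.50, the proline-rich gene Prob1 by 0.36, the lamellipodin gene Raph1 by 0.32, the palmitoyltransferase gene Zdhhc9 by 0.32, the nucleolar gene Esf1 by 0.28, the chromatin remodelling gene Pbrm1 by 0.26 and Idi1, an enzyme gene of isoprenoid synthesis, by 0.25 and 0.27 on its 2 probe sets. Tor1aip2, which encodes a torsin partner of the endoplasmic reticulum, was higher by 0.35 on 1 probe set, but its others gave -0.20 and 0.02.

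Gene groups were described with 46 lists, in which a gene was represented by its probe set of highest mean. Over all 13670 genes the median log2 fold change was 0.00 and 51.3% of values were positive. An unadjusted p under 0.05 was reached with a higher value in cKO hearts by 1109 genes (8.11%) and with a lower value by 738 genes (5.4%). After median centring of each array, which moved the overall median to 0.04, the split was 1697 higher and 320 lower. Without the 6 arrays with high Myl7 it was 417 higher and 370 lower. Among the 1847 genes with an unadjusted p under 0.05 on all 16 arrays the median size of the difference was 0.19. No list member other than Myl2 and Vps28 passed the adjusted threshold, so every other value below is a difference that did not pass.

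Of the reported Miz1 target genes, Vps28 was the only one that passed. It passed in 3 of 16 fits without 1 array and in 5 of the 12 other alternatives. Of 16 measured, 11 were lower and 5 higher, with a median of -0.06, and 3 were lower at an unadjusted p under 0.05: Vps28, Vamp4 and the autophagy regulator Ambra1. The lean was weak after sham, with 9 lower, 7 higher and a median of -0.03. After TAC 12 were lower and 4 higher, with a median of -0.09. With median centring the average over surgery had 9 lower, 7 higher and a median of -0.03. Ambra1 averaged 6.75 ± 0.11 in cKO hearts and 6.88 ± 0.11 in control hearts (SD, n = 8 each), a difference of -0.13 (adjusted p = 0.287 by limma). The cell cycle inhibitor gene Cdkn2b differed by -0.11, the integrin genes Itga6 and Itgb1 by -0.14 and 0.09, the plasma membrane syntaxin gene Stx4a by -0.10, the sorting nexin gene Snx2 by 0.11 and the survival gene Bcl2 by 0.02. Partners of Miz1 were at -0.01 in the median of 23. Myc differed by 0.07, Max by -0.08, Csrp3 by -0.01, the repressor genes Gfi1 and Bcl6 by -0.08 each, and the ubiquitin ligase gene Huwe1 and the nucleophosmin gene Npm1 by 0.21 each.

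The wider membrane traffic lists leaned towards higher values in cKO hearts, while the median of those targets was slightly negative. Among SNAREs, tethers and endosomal traffic genes, 56 of 75 were higher in cKO hearts, with a median of 0.07, and 19 were higher and 2 lower at an unadjusted p under 0.05. The 2 lower ones were Vps28 and Vamp4. Eea1, which encodes an endosomal tether, ranged from 7.89 to 8.15 in cKO hearts and from 7.60 to 7.92 in control hearts, a difference of 0.25. Vps35 and Vps26a, subunits of the retromer that returns cargo from endosomes to the Golgi, differed by 0.19 and 0.23, and the Rab genes Rab2a and Rab10 by 0.24 and 0.17.

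Vesicle coats and ER-Golgi traffic genes showed a similar lean. Of 46, 38 were higher, with a median of 0.09, and 8 were higher and 1 lower at an unadjusted p under 0.05. Copg2, a subunit of the COPI coat, ranged from 8.39 to 8.75 in cKO hearts and from 8.16 to 8.41 in control hearts, a difference of 0.26. Mia3 and Uso1, which act in export from the endoplasmic reticulum, differed by 0.23 and 0.15. Without the 6 arrays with high Myl7, 2 coat genes were higher and 1 lower, and 7 SNARE and endosomal genes were higher and 2 lower. Without Control sham replicate 4, 13 coat genes were higher, while over the fits without 1 array the all-gene count of higher genes ran from 857 to 1330. Of 52 autophagy and lysosome genes, 41 were higher, with a median of 0.05 and counts of 9 higher and 1 lower. Gaa, the lysosomal acid glucosidase gene, differed by 0.36 and the proton pump gene Atp6v0a1 by 0.24.

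Structural muscle genes other than Myl2 were mostly higher in cKO hearts. In the list of the Z-disc, costamere and intercalated disc, which anchor the contractile filaments to each other and to the membrane, 28 of 36 genes were higher, with a median of 0.14, and 11 were higher and 1 lower at an unadjusted p under 0.05. The median was 0.12 after TAC and 0.16 after sham, and 0.08 to 0.16 when 1 array at a time was left out. Myot, which encodes the Z-disc protein myotilin, ranged from 9.24 to 10.94 in cKO hearts and from 8.89 to 10.09 in control hearts, a difference of 0.71 ± 0.20 (SE, adjusted p = 0.176 by limma). Fhl1 differed by 0.52, the sarcoglycan gene Sgcd by 0.40, Pdlim5 and the dystrophin gene Dmd by 0.31 each, the desmin gene Des by 0.19 and the actinin gene Actn2 by 0.19. Fhl2, at -0.14, was the 1 lower member with an unadjusted p under 0.05, among 8 with negative values.

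In the sarcomere list 19 of 25 genes were higher, with a median of 0.08, and 6 were higher and 2 lower at an unadjusted p under 0.05. Mybpc3 ranged from 12.09 to 12.34 in cKO hearts and from 11.63 to 12.25 in control hearts, a difference of 0.26. The giant spring protein gene Ttn differed by 0.28 and the M-band gene Myom1 by 0.20, while the cardiac troponin genes Tnnt2, Tnnc1 and Tnni3 differed by 0.08, 0.03 and 0.02. The count of higher genes was 10 without cKO TAC replicate 2 and 3 when cKO sham 4, Control TAC 1 or Control sham 1 was left out.

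Markers of pressure overload had the largest list median, 0.31 over 15 genes with 13 higher, but their spread between hearts was wide. Acta1, the skeletal actin gene, averaged 11.11 ± 1.06 in cKO hearts and 10.39 ± 0.91 in control hearts (SD, n = 8 each), a difference of 0.72 ± 0.41 (SE). Nppa, which encodes atrial natriuretic peptide, differed by 0.44 ± 0.35, Myh7 by 0.38 ± 0.37 and Nppb by 0.08 ± 0.29 (SE). Fhl1 and the actin filament regulator gene Enah were the 2 members with an unadjusted p under 0.05. The median was 0.38 after TAC and 0.13 after sham. It lay between 0.15 without cKO TAC replicate 2 and 0.40 without Control sham replicate 3 when 1 array was left out, and it was 0.06 with array weights. Without the 6 arrays with high Myl7 it was -0.0017, with 7 of 15 higher, and Nppa was then at -0.03. The atrial marker list had a median of 0.17, and of 0.0046 without those arrays.

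**Figure D3:**
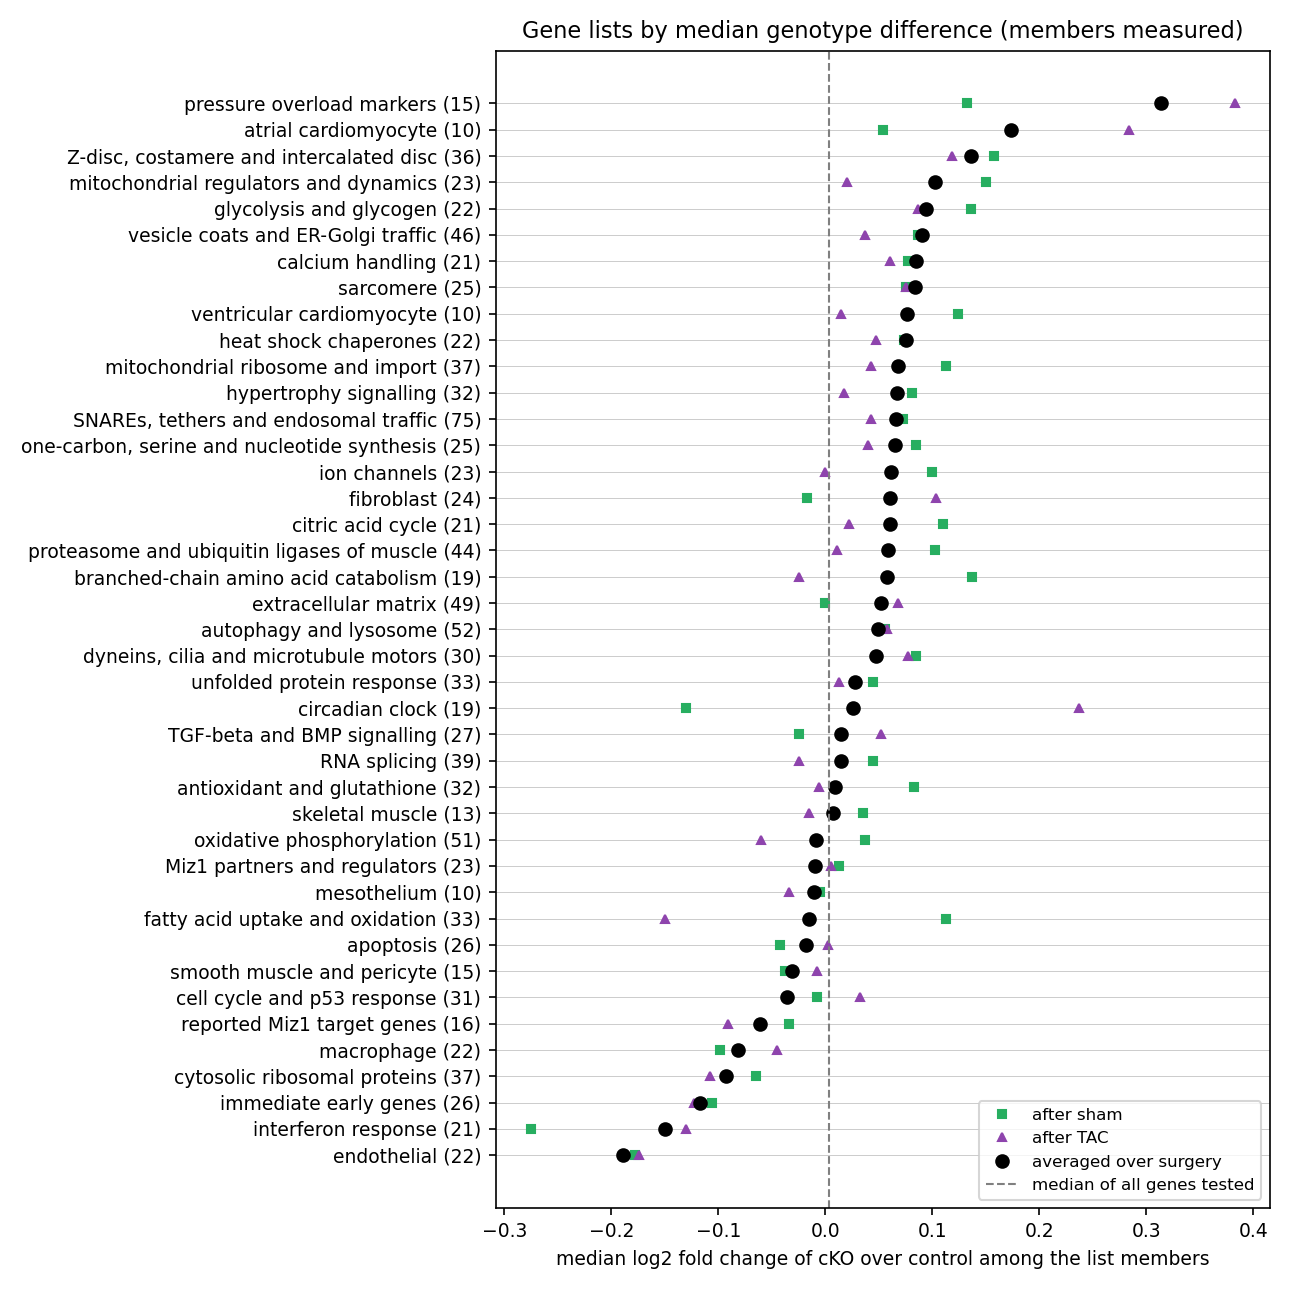
Median log2 fold change of cKO over control among the measured members of each list with 10 or more (number in brackets), averaged over surgery (black), after sham (green squares) and after TAC (purple triangles); the dashed line is the median of all genes tested. Endothelial markers have the lowest averaged median, -0.19, and pressure overload markers the highest, 0.31.

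Markers of the vessel lining were lower in cKO hearts. Of 22 endothelial genes, 21 were lower, with a median of -0.19, and 9 were lower and 0 higher at an unadjusted p under 0.05. The mean log2 value of the list lay between 8.01 and 8.29 with a median of 8.10 in cKO hearts, against 8.12 to 8.51 with a median of 8.27 in control hearts, and 5 of 8 cKO hearts lay below every control heart. The median was -0.17 after TAC and -0.18 after sham.

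Eng, which encodes the TGF-beta co-receptor endoglin, ranged from 9.50 to 9.94 in cKO hearts and from 9.72 to 10.18 in control hearts, a difference of -0.29 ± 0.08 (SE, adjusted p = 0.156 by limma). Robo4 differed by -0.26, the angiopoietin receptor genes Tie1 and Tek by -0.25 and -0.21, the VEGF receptor gene Kdr by -0.23, the adhesion gene Icam2 by -0.20 and the cadherin gene Cdh5 by -0.15. Pecam1 and Vwf, both defining markers, differed by -0.13 and -0.04, and the lymphatic gene Prox1 was the 1 higher member, at 0.22. In heart RNA, fewer cells of a type and less RNA per cell cannot be told apart. Leaving out 1 array at a time moved the list median between -0.22 and -0.15 and the count of lower genes between 6 and 12. It was 5 after median centring, where the all-gene count of lower genes was 320.

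Fibroblast markers were at 0.06 over 24 genes and smooth muscle and pericyte markers at -0.03 over 15. The fibroblast median was -0.07 to 0.15 over the fits without 1 array and -0.09 without the 6 arrays with high Myl7. Macrophage markers were at -0.08 over 22, with 6 higher and 16 lower. That median was -0.15 to -0.0052 over the fits without 1 array, nearest to 0 without Control TAC replicate 4, and -0.22 with 21 of 22 lower without the 6 arrays with high Myl7. The 2 lower members with an unadjusted p under 0.05 were H2-Aa and Cd74. Both belong to antigen presentation by MHC class II. H2-Aa ranged from 5.96 to 7.41 in cKO hearts and from 6.88 to 8.71 in control hearts, a difference of -1.01 ± 0.21 (SE, adjusted p = 0.0988 by limma), or 0.498 of the control level. The macrophage genes Csf1r, Adgre1 and Cd68 differed by -0.08, -0.10 and -0.14. Without cKO TAC replicate 2 the count of lower macrophage genes was 5.

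Interferon response genes were lower in 19 of 21 cases, with a median of -0.15, which was -0.13 after TAC and -0.28 after sham. It lay between -0.21 without cKO TAC replicate 2 and -0.08 without Control TAC replicate 4 when 1 array was left out, and it was -0.25 without the 6 arrays with high Myl7. Those lower at an unadjusted p under 0.05 were Rsad2, Stat2, Iigp1 and Tap1, at -0.36, -0.24, -0.38 and -0.30, and none was higher. That count of 4 was 1 without Control sham replicate 3, 2 when cKO TAC 3, Control TAC 2 or Control TAC 4 was left out, 7 for cKO TAC 2 or cKO sham 1, and 8 without Control TAC replicate 3.

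Cytosolic ribosomal protein genes were lower in cKO hearts in 34 of 37 cases, with a median of -0.09, and 9 were lower and 0 higher at an unadjusted p under 0.05. Rplp0, which encodes a protein of the ribosomal stalk, ranged from 12.16 to 12.43 with a median of 12.31 in cKO hearts, against 12.40 to 12.71 with a median of 12.56 in control hearts, with 6 of 8 cKO hearts below every control heart. It differed by -0.27 ± 0.05 (SE, adjusted p = 0.0942 by limma), and its other probe set gave -0.28. Rps9 differed by -0.27, Rpl13 by -0.21 and Rps14 by -0.19. Many ribosomal protein genes have near-identical processed copies, and which copy a probe set reads is uncertain. The count of 9 was 5 without Control sham replicate 1 and 14 when Control TAC 2 or Control sham 4 was left out. It was 4 after median centring and 3 without the 6 arrays with high Myl7.

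**Figure D4:**
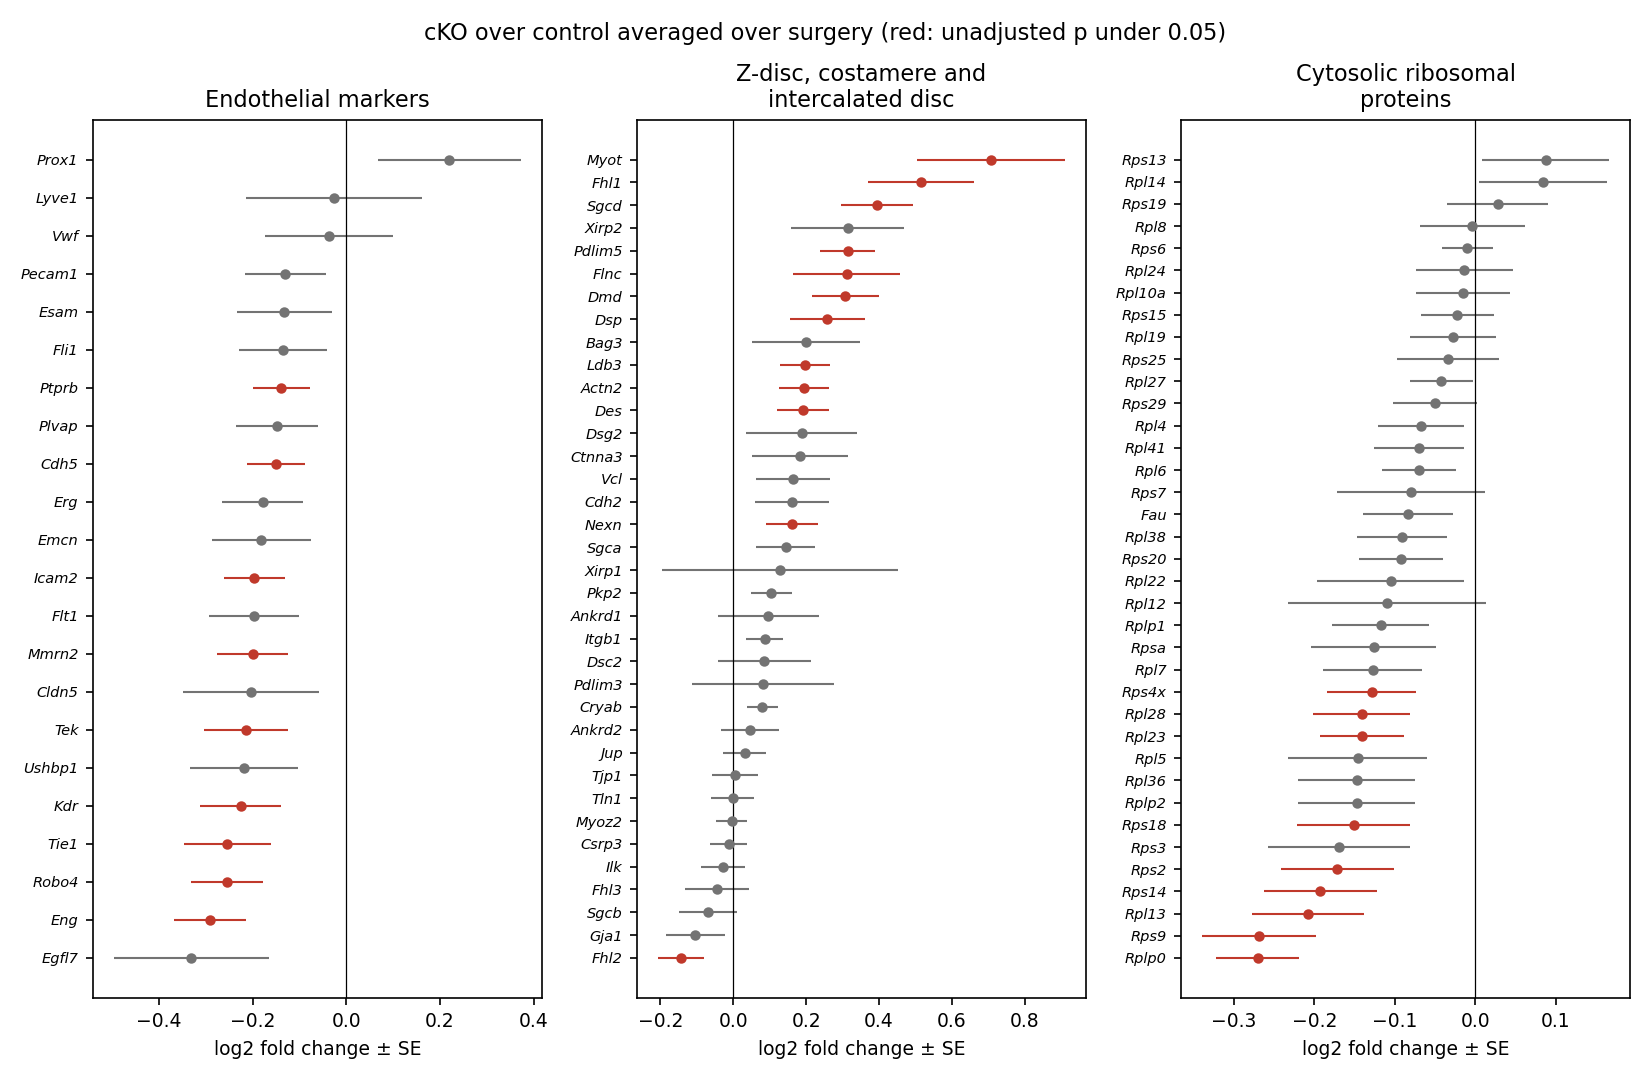
Log2 fold change of cKO over control averaged over surgery (point) with its SE (line) for every measured member of the endothelial, Z-disc and ribosomal protein lists; red marks an unadjusted p under 0.05, and none of the members shown passed the adjusted threshold. Of the endothelial genes 21 of 22 lie left of 0, of the Z-disc genes 28 of 36 lie right of it, and of the ribosomal genes 34 of 37 lie left.

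Immediate early genes, which respond within minutes to stimulation, were lower in 21 of 26 cases, with a median of -0.12 and 5 lower at an unadjusted p under 0.05. Egr3, Dusp1, Egr2 and Klf4 differed by -0.23, -0.27, -0.27 and -0.34, and Atf3 by -0.21 ± 0.53 (SE). Without the 3 sham arrays with high Atf3 the median was -0.06 and the count was 1. The count was 2 when cKO TAC 2, cKO sham 3, Control sham 3 or Control sham 4 was left out, and 3 for cKO TAC 3, cKO sham 4 or Control TAC 1, 3 or 4.

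Lists of energy metabolism differed in their medians. Oxidative phosphorylation genes were at -0.01 over 51, with 1 higher and 5 lower at an unadjusted p under 0.05, and the cytochrome oxidase subunit gene Cox6a1 differed by -0.46 after TAC and 0.05 after sham. Fatty acid genes were at -0.02 over 33, with -0.15 after TAC and 0.11 after sham. Ucp3, a mitochondrial uncoupling protein gene, differed by -0.59 ± 0.21 (SE, adjusted p = 0.224 by limma). Glycolysis and glycogen genes were at 0.09 over 22, with 6 higher and 1 lower, and the glycolytic enzyme gene Tpi1 and the glycogen synthesis gene Ugp2 differed by 0.15 and 0.30. Mitochondrial ribosome and import genes had 6 higher and 0 lower of 37. That count was 10 without cKO TAC replicate 2. For oxidative phosphorylation the count of 5 lower was 2 when cKO TAC 2, cKO sham 2 or Control TAC 1 was left out, 3 for cKO sham 3 or Control sham 1, and 8 for cKO sham 4.

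Among protein turnover and transport genes, 7 of 44 proteasome and muscle ubiquitin ligase genes were higher and 0 lower at an unadjusted p under 0.05, including the atrogin gene Fbxo32, at 0.37, and the proteasome activator gene Psme4, at 0.25. Without Control sham replicate 4 there were 12. Of 30 genes of dyneins, cilia and microtubule motors, 8 were higher and 1 lower, among them the intraflagellar transport genes Ift81 and Ift52 at 0.35 and 0.18 and the kinesin gene Kif5b at 0.27. Calcium handling genes were at 0.09 over 21, with 3 higher and 0 lower. Extracellular matrix genes had none higher and none lower of 49, with a median of 0.05, and the circadian clock list had none of 19. The clock list went opposite ways in the surgeries. Its median was 0.24 after TAC, with 16 of 19 genes higher, and -0.13 after sham, with 14 of 19 lower.

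Most remaining lists had few members with an unadjusted p under 0.05. Hypertrophy signalling had 4 higher and 0 lower of 32, mitochondrial regulators and dynamics 4 and 0 of 23, and heat shock chaperones 3 and 1 of 22. Ion channel genes had 1 higher, the sodium pump subunit gene Atp1b1 at 0.29, and 2 lower, the potassium channel genes Kcnj8 and Kcne1 at -0.24 and -0.43. The citric acid cycle and branched-chain amino acid lists had 1 higher and 0 lower each, of 21 and 19. Lists of apoptosis, RNA splicing, the cell cycle and p53 response, one-carbon and nucleotide synthesis, and antioxidants each had 2 higher and 1 lower.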

How the data were processed

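Per the labels' protocols, total RNA of 16 mouse heart samples was purified by a kit for fibrous tissue and hybridised as biotin-labelled cRNA. The values are log2 expression values deposited by the authors, to 2 decimals, for 35556 probe sets, a scale read from the values themselves. The submitters' processing notes name MAS5 without a version, and the scaling between arrays was not found in the sources used here. The lower quartile was 3.73 to 3.85 and the upper quartile 6.82 to 6.93 over the arrays, so differences in overall RNA level cannot be read from them. No scanner values were used. The number of arrays limits the precision.

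Groups came from the sample titles. Of all probe sets, 21789 have 1 gene symbol in the platform annotation, 1621 have several, from which no gene was named, and 12146 are unlisted. Probe sets with a mean above the 40th percentile were fitted with limma 3.58.1 in R 4.3.3: a mean for each of the 4 groups (residual df 12), with trended empirical Bayes moderation. Tests were two-sided, adjusted by Benjamini-Hochberg over all 21333 probe sets. The contrasts were cKO minus control averaged over surgery, after TAC, after sham, and the interaction. The labels number the samples of a group without saying that each came from another mouse, so p-values measure the spread between these samples. The fit was also run on simulated data with independent normal noise and no differences in array quality, so no result here rests on it. Lists were described by counts and medians only, and no test was made on a list; their values under the alternatives were added after the data were seen.

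The comparison, the gene lists, the key genes and the alternatives were chosen with earlier results of these data known. Named genes were the key genes, all called probe sets, the 24 genes of smallest p, 2 members of smallest p in each pathway list, and calls within a surgery; further list members, the separated genes and the leading members of marker lists were chosen after their values were seen. Alternatives were median centring, quantile normalization, a filter at the 60th percentile or none, an additive model, no trend, array weights, the replicate block, gene means, probe sets with 1 symbol, only the arrays of 1 surgery, leaving out each array, and leaving out the arrays with Myl7 above 6 or the sham arrays with Atf3 above 8. Figures were drawn with matplotlib 3.10.9.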

Additional observations from a re-analysis of the deposited data

Results flagged for a closer look

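In 12 cases 1 heart stood apart from the other 3 of its group, its gap to the nearest being past the 95% limit of Dixon's ratio for 4 values. Chance flags about 1 in 20 groups, and 47 probe sets were checked in 4 groups each. C2cd5 read 6.10 in cKO sham replicate 3, above the rest of its group and below every control heart. Dnajc13 read 5.52 in Control sham replicate 4, inside the cKO range. Pbrm1 read 8.23 in Control TAC replicate 3, Gne 7.60 in Control TAC replicate 2, and Tor1aip2 6.94 in cKO TAC replicate 3. Probe set 10341314, called after sham, read 6.66 in cKO sham replicate 3. Ambra1 read 6.50 in cKO TAC replicate 3 and 6.87 in cKO sham replicate 1. Max read 7.16 in cKO sham replicate 4 and Nppb 11.85 in cKO sham replicate 1. For Myl7, cKO sham replicate 2 read 8.46, and replicate 3 of Control sham read 8.62, which are 2 of the 6 arrays left out for high Myl7.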

How the results depend on the processing

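The count of 4 probe sets called averaged over surgery was 8 with quantile normalization, 2 with median centring, 1 without a filter, 9 with a filter at the 60th percentile, 2 without a trend, 7 over probe sets with 1 symbol, 8 for gene means and 1 without the 6 arrays with Myl7 above 6. It lay between 1 and 81 when 1 array was left out. Without the 3 sham arrays with Atf3 above 8 it was again 4, of which 1, Myl2, was among the main calls. After sham the count of 5 was 3 without a trend, 1 with array weights, 3 with only the 8 sham arrays, and 0 with median centring, with the 60th percentile filter, over probe sets with 1 symbol, for gene means and without the arrays of high Myl7 or of high Atf3, and it lay between 0 and 27 without 1 array, the highest being without Control sham replicate 4. After TAC the count of 1 was 2 with quantile normalization and with array weights, and 0 without a trend, with only the 8 TAC arrays and without the arrays of high Myl7 or of high Atf3, and it lay between 1 and 2 without 1 array. The interaction stayed at 0 calls, with 470 to 1522 probe sets at an unadjusted p under 0.05. Deviations from the group mean of same-numbered cKO and control arrays within a surgery correlated at -0.20 to 0.19 over 8 pairs. The 24 other pairs gave -0.33 to 0.25. With 8 pairs this cannot exclude a pairing, and same-numbered arrays of different surgeries were not compared. With the replicate number as a block, 2 probe sets were called averaged over surgery, 1 of them, Myl2, shared with the main calls, and 0 after sham. Myl2 kept an adjusted p of at most 0.0401 in the average over surgery under every alternative run.

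Of 143 named probe sets, 8 took the opposite sign in at least 1 setting, none of them called. Without the arrays of high Myl7, Nppa was at -0.0275, Nppb at -0.307, Bcl2 at -0.233 and Atf3 at 0.11. Without those of high Atf3, Atf3 was at 0.203, Bcl6 at 0.226 and Csrp3 at 0.0146. With array weights Myl7 was at -0.315, Nppb at -0.116, Myc at -0.200 and Bcl2 at -0.0737. With quantile normalization Csrp3 was at 0.0077 and Bcl2 at -0.0037, and with median centring Csrp3 was at 0.0231. Leaving out 1 array gave -0.562 to 0.192 for Atf3, -0.203 to 0.0608 for Bcl6, -0.0413 to 0.0138 for Csrp3, -0.231 to 0.728 for Myl7, -0.109 to 0.241 for Nppb, -0.118 to 0.259 for Myc and -0.105 to 0.109 for Bcl2. The causes were not tested.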

Other observations

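Genes of antigen presentation by MHC class II had lower values in cKO hearts in both surgeries, a group picked after the values were seen. H2-Ab1 ranged from 6.48 to 7.66 in cKO hearts and from 6.89 to 8.69 in control hearts, a log2 difference of -0.86. Cd74, the invariant chain gene, differed by -0.68, H2-Eb1 by -0.55 and the peptide-loading gene H2-DMa by -0.20. The chemokine gene Cxcl9 differed by -0.91. With H2-Aa, which differed by -1.01, the differences of these genes lay between -0.92 and -0.21 after TAC and between -1.09 and -0.20 after sham. The ranges of the genotypes overlapped for each of them, and none passed the adjusted threshold.

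The largest difference of any gene with an unadjusted p under 0.05 was that of Akr1e1, an aldo-keto reductase gene, also picked after its values were seen. It ranged from 6.86 to 7.62 in cKO hearts and from 4.66 to 6.94 in control hearts, and 7 of 8 cKO hearts were above every control heart. The control hearts were split. Control TAC replicate 2 read 6.94 and Control sham replicates 3 and 4 read 6.90 and 6.66, while the other control hearts read 4.66 to 5.45. The log2 fold change was 1.43 ± 0.32 (SE, limma adjusted p = 0.112). Pla2g5, which encodes a secreted phospholipase, ranged from 8.26 to 9.83 in cKO hearts and from 9.68 to 10.46 in control hearts, with 7 of 8 cKO hearts below every control heart, and differed by -0.84.

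Neighbours of Zbtb17 and Myl2 in the order of RefSeq genes were read as well. Around Zbtb17, 1 of the 50 nearest tested genes was higher and 2 were lower in cKO hearts at an unadjusted p under 0.05, and around Myl2 6 were higher and 2 lower, with 0 called in either set. Next to Myl2, Cux2 differed by 0.00 and Ccdc63 by -0.17, and next to Zbtb17, Hspb7 differed by 0.17 and Spen by -0.01.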
